A study of Sus scrofa domesticus with 34 samples.

Results

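Albumin-rich and albumin-poor libraries are the 8 libraries with the most and the 8 with the fewest ALB transcripts among 34 libraries made from pigs on 4 vitamin D diets. The members were chosen by their measured ALB level: the 34 libraries were ranked by ALB in CPM (counts per 1000000 counts of genes), so that 16 of 34 libraries entered the comparison and 18 lay between the groups. The pigs received, per kg of feed in the grower and then the finisher phase, one of these supplements: 2000 and 1500 IU of cholecalciferol (standard cholecalciferol, 8 pigs), 3000 and 2500 IU of cholecalciferol (increased cholecalciferol, 10 pigs), the standard dose with 1000 IU of 25(OH)D added in both phases (combination, 8 pigs), or 2000 and 1500 IU of 25(OH)D without cholecalciferol (25(OH)D, 8 pigs). Of these pigs, 18 were female and 16 were castrated males. All libraries are labelled as muscle. Each read of the 3′ library kit stands for the end of 1 polyadenylated transcript, so CPM values need no correction for transcript length.

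Albumin is the main protein of blood plasma and is made by hepatocytes, the parenchymal cells of the liver. Hepatocytes also secrete most other plasma proteins, among them carriers, clotting factors, protease inhibitors and apolipoproteins, and they hold the enzymes of gluconeogenesis, the urea cycle and detoxification. Skeletal muscle and brain are not known for making most of these transcripts, although the brain has its own TTR, TF and APOA1 transcripts.

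ALB served only to choose the libraries, and its values are given as a description. In the rich group ALB was at 818 CPM in standard cholecalciferol replicate 6, 404 in increased cholecalciferol replicate 6, 290.1 in 25(OH)D replicate 5, 208 in combination replicate 6, 109 in increased cholecalciferol replicate 10, 67.9 in standard cholecalciferol replicate 4, 56.8 in combination replicate 3 and 52.9 in increased cholecalciferol replicate 7. The poor group ran from 12.8 to 17.7 CPM with a median of 16.2. The 18 libraries between ran from 19.8 to 42.4 CPM with a median of 28.8. Just inside and just outside the groups stood 52.9 and 42.4 CPM at the upper border and 17.7 and 19.8 CPM at the lower one. The rich group was spread widely, and both borders fell between libraries of nearby levels.

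**Figure D1:**
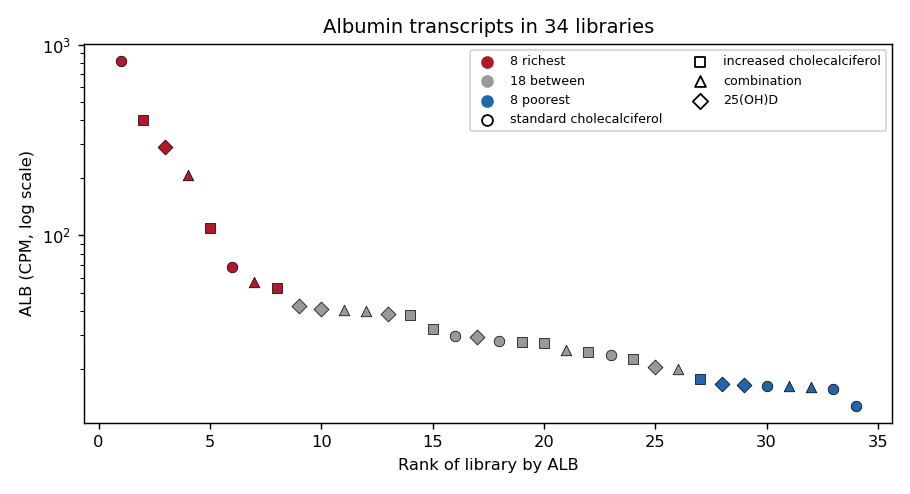
ALB level in CPM on a log scale (vertical axis) against the rank of each of the 34 libraries (horizontal axis), with colour for the 8 richest, the 18 between and the 8 poorest libraries and marker shape for diet. The 8 richest libraries span 52.9 to 818 CPM and hold libraries of all 4 diets, while the 8 poorest lie between 12.8 and 17.7 CPM.

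Rich libraries came from every diet: 2 of 8 on standard cholecalciferol, 3 of 10 on increased cholecalciferol, 2 of 8 on the combination and 1 of 8 on 25(OH)D. The poor libraries were 3, 1, 2 and 2 of these diets in the same order. By sex the rich group held 6 females and 2 castrated males, and the poor group 3 females and 5 castrated males. All 8 poor libraries had file numbers from 1 to 24, whereas 5 rich libraries fell in that range, 2 in the range from 25 to 29 and 1 in the range from 30 to 34. Albumin group, sex and range of file numbers are thus partly confounded, and their parts in a difference cannot be fully told apart. The labels do not say what the file numbers stand for.

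The muscle label was checked in the 16 libraries. SNAP25, a synaptic protein of neurons, was at 1010 to 2675 CPM in rich and 369 to 2722 CPM in poor libraries, and MBP, a myelin protein, at 1314 to 4864 and 1510 to 8483 CPM. ACTA1, the actin of skeletal muscle fibres, was at 742 to 3819 CPM in rich and 482 to 1330.4 CPM in poor libraries. Brain transcripts were therefore abundant in samples labelled muscle. A regional score, the mean log2(CPM + 1) of the cerebellar genes CBLN1 and CBLN3 minus that of the cortical genes TBR1 and FEZF2, was a covariate in the gene models and differed by -1.42 between rich and poor groups (exact permutation p = 0.244). In bulk tissue, fewer cells of a type and less RNA per cell cannot be told apart.

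Of 7 library measures, 1 differed between the albumin groups. The share of reads outside annotated features was 16.4 to 21.8% in rich and 19.9 to 29.9% in poor libraries, a difference of -4.98 percentage points (exact permutation test over 12870 splits of 8 against 8, two-sided p = 0.00544, adjusted p = 0.0381 over 7 measures). With 10 libraries a side this difference was -3.03 points (exact permutation p = 0.0647). Total gene counts were 2.10 to 21.0 M (M, 1000000 counts) in rich and 4.08 to 7.82 M in poor libraries, and the groups overlapped. Over all 34 libraries the ranges of file numbers differed in depth. Total gene counts were 4.08 to 13.2 M in files 1 to 24, 16.8 to 30.4 M in files 25 to 29 and 1.34 to 2.69 M in files 30 to 34. Total counts, detected genes, the mitochondrial share, the share of the 10 largest genes, the regional score and the share of multiply aligned reads gave adjusted p from 0.543 to 0.727 by the same exact permutation test.

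AHSG, CYP2E1, PCK1 and a gene without a symbol, ENSSSCG00000023320, were higher in albumin-rich libraries, and no gene was lower at an adjusted p below 0.05 (quasi-likelihood test of edgeR, adjusted by Benjamini-Hochberg over all genes). These 4 were 0.0313% of 12768 genes tested, against 0% lower. All 3 with a symbol are textbook hepatocyte genes. DESeq2 called 53 genes higher and 53 lower, all 4 of these genes among the higher ones. Limma-voom called 2 and 2: it kept PCK1 and ENSSSCG00000023320 (adjusted p = 0.0488 for both) but neither AHSG nor CYP2E1 (adjusted p = 0.0724 for both). At an unadjusted p below 0.05, 906 genes (7.1%) were higher and 962 (7.53%) lower, 14.6% in all. As the libraries were ranked by a transcript, the comparison shows which transcripts varied with ALB and is no effect of a treatment.

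AHSG encodes fetuin-A, a protease inhibitor and carrier of calcium phosphate in plasma. In the rich libraries, in order of falling ALB, AHSG was at 102, 30.2, 21.6, 16.6, 10.3, 1.70, 3.26 and 3.88 CPM. In the poor libraries AHSG ran from 0.263 to 2.11 CPM with a median of 0.892, which rests on 2 to 14 reads per library. The 5 libraries richest in ALB stood well above all others, and the other 3 lay within or just above the poor range. The log2 fold change was 4.53 (SE 0.67, n = 8 and 8, adjusted p = 0.0073 by edgeR), and AHSG was above the highest poor library in 7 of 8 rich libraries.

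CYP2E1, a cytochrome P450 that oxidises ethanol and small solvents, was at 16.3, 10.1, 7.90, 9.04, 5.30, 1.55, 1.63 and 9.64 CPM in the rich libraries in the same order. Poor libraries held 0.447 to 2.65 CPM, with a median of 1.22. Here 6 of 8 rich libraries exceeded all poor ones, and the 2 that did not were standard cholecalciferol replicate 4 and combination replicate 3. The log2 fold change was 2.80 (SE 0.45, adjusted p = 0.0176 by edgeR).

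PCK1, the cytosolic enzyme that commits oxaloacetate to gluconeogenesis, was at 24.7, 9.85, 7.90, 6.18, 3.24, 2.16, 3.96 and 7.88 CPM in the rich libraries. The poor libraries ran from 0.132 to 4.16 CPM with a median of 0.662. PCK1 was at 3.97 CPM in combination replicate 1 and 4.16 in standard cholecalciferol replicate 1 of the poor group, so that 5 of 8 rich libraries lay above all poor ones. The log2 fold change was 3.00 (SE 0.51, adjusted p = 0.0275 by edgeR).

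ENSSSCG00000023320 was at 18.1, 6.77, 6.84, 5.23, 1.53, 3.25, 1.86 and 2.59 CPM in the rich libraries and at 0.132 to 1.49 CPM in the poor ones, with no overlap. Its log2 fold change was 3.70 (SE 0.55, adjusted p = 0.0073 by edgeR). It was 1 of 4 genes (0.0313%) whose 8 rich libraries all lay above the 8 poor ones. The other 3, chosen after their values were seen, were ACTR2 (138 to 208 against 60.3 to 135 CPM), ARPC2 (95.5 to 109 against 61.2 to 87.1 CPM) and MYCT1 (6.06 to 8.11 against 2.11 to 5.58 CPM). ACTR2 and ARPC2 are subunits of the Arp2/3 complex, which nucleates branched actin filaments, and all 3 missed the threshold with adjusted p of 0.157, 0.212 and 0.249 (edgeR). DESeq2 called ACTR2 (adjusted p = 0.0182) and ARPC2 (0.0425). NHLRC3 was the 1 gene (0.00783%) with all rich libraries below the poor ones, at 1.88 to 6.29 CPM against 6.45 CPM or more (adjusted p = 0.180 by edgeR and 0.0266 by DESeq2).

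The calls depended on the test, as given above, and on which libraries and covariates entered. No gene was higher once sex was in the model, once ranges of file numbers were in the model, within file numbers 1 to 24 alone (5 rich against 8 poor libraries), without standard cholecalciferol replicate 6, or with the share of reads outside features as a covariate. AHSG kept its direction in these fits, with log2 fold changes of 4.06 (edgeR adjusted p = 0.138), 3.71 (0.263), 3.19 (0.293), 3.32 (0.215) and 4.07 (0.921) in that order. CYP2E1 was at 2.55, 2.57, 2.37, 2.47 and 2.31 and PCK1 at 2.62, 3.22, 2.99, 2.74 and 2.69. ENSSSCG00000023320 was at 3.05, 3.78, 3.21, 3.08 and 3.26. PCK1 alone also passed no more without the regional score (edgeR adjusted p = 0.173) or with diet added (0.0775). The file ranges from 25 to 29 and from 30 to 34 hold no poor library and gave no value of their own.

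**Figure D2:**
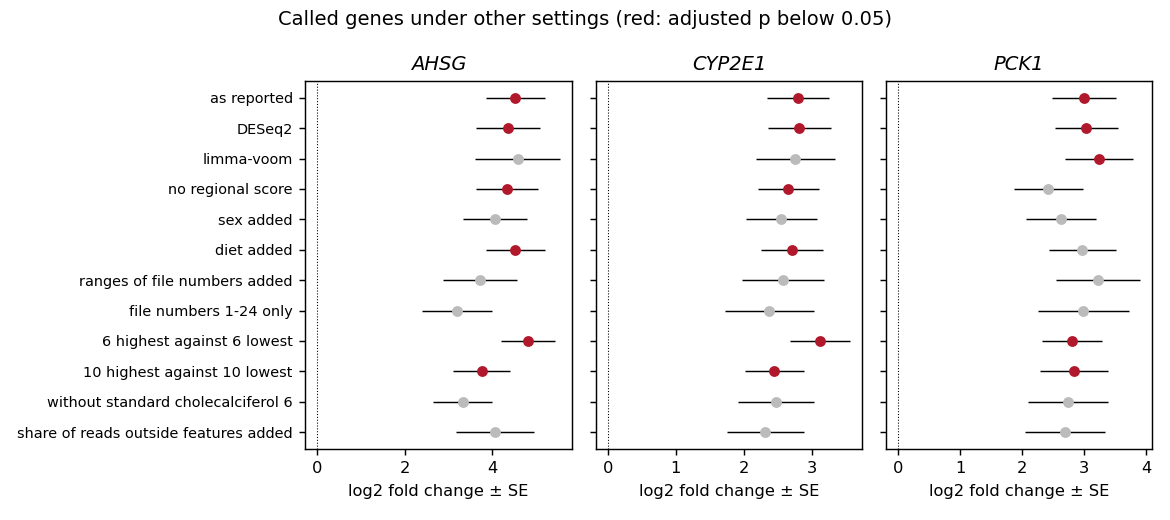
Log2 fold change of AHSG, CYP2E1 and PCK1, rich minus poor (horizontal axes, points with SE bars), under 12 settings (vertical axis), with red for an edgeR, DESeq2 or voom adjusted p below 0.05 and grey for none. All values stay above 0, with AHSG between 3.19 and 4.82, while the points of all 3 genes turn grey with sex, file ranges, file numbers 1 to 24, without standard cholecalciferol replicate 6 and with the share of reads outside features. AHSG and CYP2E1 are also grey with limma-voom, and PCK1 without the regional score and with diet added.

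Leaving out other libraries raised or lowered the count. Without poor combination replicate 2, 16 genes were higher and 4 lower. Without rich combination replicate 3 these counts were 14 and 5, and without rich standard cholecalciferol replicate 4 they were 13 and 3. Without poor standard cholecalciferol replicate 3, 2 genes were higher and 0 lower. Among the 16 fits that left out 1 library, AHSG and ENSSSCG00000023320 lost their calls in 1, without standard cholecalciferol replicate 6, the library with the most ALB. CYP2E1 lost its call in 2, without that library and without poor standard cholecalciferol replicate 3 (edgeR adjusted p = 0.0841). PCK1 lost its call in 5, without these 2 libraries (adjusted p = 0.25 and 0.121), without rich 25(OH)D replicate 5 (0.0681) and without poor 25(OH)D replicate 3 (0.0637) or 2 (0.051).

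Plasma protein genes followed a list of 52 hepatocyte products, of which 45 had a symbol in the files, 43 a count in these libraries and 17 passed the filter on low counts. The filter admits a gene that is expressed in 1 group only, so that counts over the 17 are a description. Of these, 1 was called (0.0313% of all genes) and 9 were higher at an unadjusted p below 0.05 (7.1%), 0 lower (7.53%), with a median log2 fold change of 1.06 against 0.000606 over all genes. DESeq2 called 8 of the 17 and limma-voom 0. Without standard cholecalciferol replicate 6 the median was 0.70, with 9 still higher at an unadjusted p below 0.05.

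Among carriers, HPX, the scavenger of free haem, was at 46.7, 23.4, 23.2, 13.8, 7.20, 3.40, 0.233 and 6.82 CPM in rich libraries and 1.39 to 4.09 CPM in poor ones (log2 fold change 2.65, SE 0.54, edgeR adjusted p = 0.0684). Combination replicate 3, at 0.233 CPM from 1 read, lay below every poor library, whereas 6 of 8 rich libraries lay above. RBP4, the plasma carrier of retinol, was at 12.8 to 35.7 against 0.537 to 22.5 CPM (1.06, adjusted p = 0.180). TTR, which carries thyroxine and is also made in the choroid plexus, was at 3.25 to 139 against 1.84 to 147 CPM (1.57, adjusted p = 0.305), and its groups overlapped entirely.

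Of the clotting genes, FGB, the beta chain of fibrinogen, was at 55.6, 53.8, 39.1, 36.6, 16.4, 6.96, 11.6 and 16.0 CPM in rich libraries and 5.26 to 11.8 CPM in poor ones. Its log2 fold change was 1.90 (SE 0.38, edgeR adjusted p = 0.0684), with 6 of 8 rich libraries above all poor ones. The summed level of the 11 measured coagulation genes was 15.1 to 167 CPM in rich and 10.3 to 18.8 CPM in poor libraries, with 6 of 8 rich libraries above the poor range. This was the subgroup of plasma proteins with the most rich libraries above the poor range.

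AMBP, the precursor of the protease inhibitor bikunin, was at 26.6, 15.6, 10.3, 9.04, 3.48, 2.16, 0.932 and 1.53 CPM in rich libraries and 0 to 1.84 CPM in poor ones (log2 fold change 3.87, SE 0.72, edgeR adjusted p = 0.0536). SERPINC1, antithrombin, was at 1.55 to 19.5 against 0 to 1.81 CPM (2.88, SE 0.59, adjusted p = 0.0684). APOH, a phospholipid-binding plasma glycoprotein, was at 0.588 to 25.1 against 0.640 to 3.53 CPM (2.58, SE 0.55, adjusted p = 0.0746). VTN, an adhesion protein of plasma and matrix, was at 2.01 to 12.3 against 0.736 to 3.22 CPM (1.46, adjusted p = 0.180). For these 4 genes the lowest value of the rich group came from a library ranked 6 to 8 in ALB.

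Not every liver-secreted transcript was high with ALB. APOA1, the main protein of high-density lipoprotein, was at 196 ± 26.3 CPM (SD, n = 8) in rich and 164 ± 48.9 CPM (SD, n = 8) in poor libraries (log2 fold change 0.18, SE 0.14, edgeR adjusted p = 0.548). SERPINA1, alpha-1-antitrypsin, was at 2.46 to 20.3 against 2.20 to 27.5 CPM (-0.13, SE 0.26, adjusted p = 0.835). Its highest rich and poor values came from the libraries with the highest regional score of each group. These were standard cholecalciferol replicate 6 (score 7.95) and replicate 1 (score 9.07). In SERPINA1 the groups overlapped throughout. In APOA1 most poor libraries lay below every rich one. The overlap in APOA1 came from poor combination replicate 2 at 277 CPM and poor increased cholecalciferol replicate 8 at 180.0 CPM. The summed plasma protein list was at 547 to 1224 CPM in rich and 306 to 1763 CPM in poor libraries. Its top value came from poor increased cholecalciferol replicate 8. There TF, which the brain also makes, held 8612 counts, against 1223 for APOA1 and 130 for SERPINA1.

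**Figure D3:**
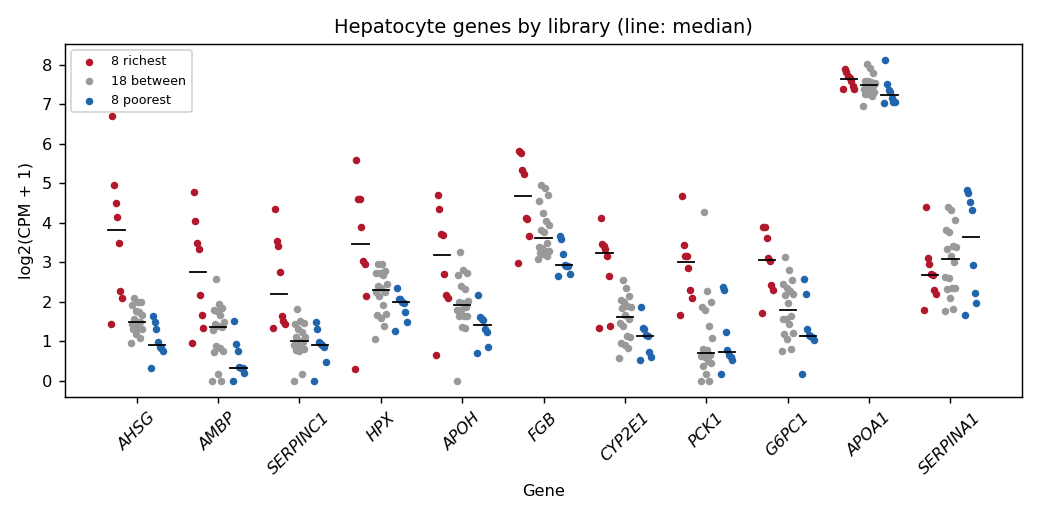
Level of 11 hepatocyte genes as log2(CPM + 1) (vertical axis) in each of the 8 richest, 18 between and 8 poorest libraries (points by colour, horizontal axis by gene, short lines for medians). AHSG, AMBP and FGB have most rich libraries above the poor ones, AHSG reaching 102 CPM, while the points of APOA1 and SERPINA1 overlap between groups.

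The enzyme list held 57 hepatocyte genes, 41 with a symbol and a count and 11 past the filter. As above, a gene could pass through the rich group alone. Of the 11, 2 were called (CYP2E1 and PCK1, against 0.0313% of all genes), 6 were higher and 0 lower at an unadjusted p below 0.05 (7.1% and 7.53% of all genes), and the median log2 fold change was 0.87. DESeq2 called 4 of the 11 and limma-voom 1. Without standard cholecalciferol replicate 6 the median was 0.45 and 4 were higher at an unadjusted p below 0.05. G6PC1, the last enzyme of glucose release, was at 14.0, 13.8, 11.3, 7.61, 4.34, 2.32, 3.96 and 7.17 CPM in rich and 0.132 to 4.96 CPM in poor libraries (log2 fold change 2.58, SE 0.48, edgeR adjusted p = 0.0536). Poor combination replicate 1 and poor standard cholecalciferol replicate 1 were the highest of their group in G6PC1, as in PCK1.

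Without the filter on low counts, 24404 genes were tested and 23 (0.0942%) were higher and 2 (0.0082%) lower, with 6.61% higher at an unadjusted p below 0.05. All 43 plasma protein and 41 enzyme genes with a count then entered. Of the plasma proteins 11 were called higher, 25 were higher at an unadjusted p below 0.05 and 40 lay above 0, and of the enzymes 6, 18 and 38, while 48.6% of all genes lay above 0. The median log2 fold change was 1.58 and 1.65 in the lists and -0.015 over all genes. A high median was not particular to the hepatocyte lists. It was 2.27 in the pancreatic list (12 of 12 genes above 0, 0 called) and 1.46 in the stomach list (6 of 7 above 0, 0 called). The lowest median of a list was -0.42, that of choroid plexus and ependyma. Among genes that the filter had removed and that were chosen after their values were seen, FGG, the fibrinogen gamma chain, was at 23.2, 22.0, 17.8, 7.61, 3.39, 1.24, 0.699 and 0.353 CPM in rich and 0 to 0.596 CPM in poor libraries (log2 fold change 5.10, edgeR adjusted p = 0.00195). HRG, a histidine-rich plasma glycoprotein, was at 1.18 to 35.1 against 0.128 to 1.71 CPM (4.05, adjusted p = 0.00698). CPS1, the entry enzyme of the urea cycle, was at 0.618 to 9.64 against 0 to 1.21 CPM and missed the threshold (3.06, adjusted p = 0.0508). Poor levels of these genes rest on few reads (0 to 4 for FGG), so the fitted fold changes depend on the prior count.

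GC, the vitamin D-binding protein that carries 25(OH)D in plasma, bears on the diets of the series. GC was at 21.7, 8.83, 8.42, 1.43, 2.53, 0.464, 0 and 1.06 CPM in rich libraries and 0 to 1.57 CPM in poor ones. The 3 libraries richest in ALB stood apart and the others lay within or near the poor range. GC did not pass the filter, and without the filter its log2 fold change was 3.76 (SE 0.77, edgeR adjusted p = 0.039). Of 12 measured genes of vitamin D handling, 7 passed the filter and 0 were called, against 0.0313% of all genes higher and 0% lower. At an unadjusted p below 0.05 by edgeR, 0 were higher and 1 was lower, against 7.1% and 7.53% of all genes. Counts this small give no result about the list.

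Relative to ALB, hepatocyte transcripts differed in how far their proportions varied over the 5 richest libraries. Per 100 ALB counts there were 7.44 to 12.5 of AHSG, 6.80 to 17.6 of FGB, 5.71 to 7.99 of HPX, 3.20 to 4.35 of AMBP, 2.44 to 3.02 of PCK1 and 1.99 to 4.86 of CYP2E1. FGB, CYP2E1 and G6PC1 (1.71 to 3.99) were lowest and AHSG was highest in the richest library, and SERPINC1 ranged from 1.58 to 3.63. ALB itself varied from 109 to 818 CPM over these libraries. In the libraries ranked 6 to 8 the proportions were 2.51 to 7.33 for AHSG, 0.410 to 12.9 for HPX, 3.19 to 14.9 for PCK1 and 2.28 to 18.2 for CYP2E1. The lowest HPX proportion rests on 1 HPX read. Among the 18 libraries between, increased cholecalciferol replicate 5 (ALB at 27.7 CPM) held 87 PCK1 counts beside 132 ALB counts. The other libraries between held 0 to 32 PCK1 counts. The 5 richest libraries came from 5 pigs on all 4 diets and from all 3 ranges of file numbers.

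**Figure D4:**
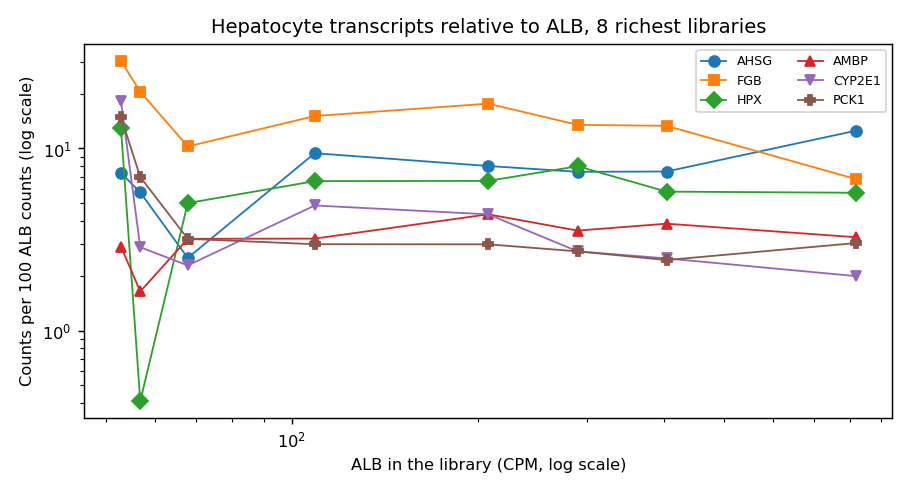
Counts of 6 hepatocyte genes per 100 ALB counts (vertical axis, log scale) against ALB in CPM (horizontal axis, log scale) in the 8 richest libraries, with 1 line per gene. From 109 to 818 CPM of ALB, PCK1 stays between 2.44 and 3.02 and AMBP between 3.20 and 4.35, while FGB (6.80 to 17.6) and CYP2E1 (1.99 to 4.86) are lowest in the richest library.

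Genes most like ALB over all 34 libraries, by Spearman rho of CPM and given as a description, were APOH (0.740), AMBP (0.727), FGB (0.724), AHSG (0.710), G6PC1 (0.684), CYP2E1 (0.650), DR1 (0.585), COL3A1 (0.562), HPX (0.561) and SERPINC1 (0.550). Of these 10, 8 are in the hepatocyte lists. DR1, a repressor of RNA polymerase II transcription, was at 17.9 to 31.6 CPM in rich and 12.5 to 20.6 in poor libraries (log2 fold change 0.58, edgeR adjusted p = 0.107). All genes of a library, ALB included, share the total count by which their CPM was divided.

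A model of log2 ALB as a number over all 34 libraries called 47 of 15319 genes rising (0.307%) and 0 falling (0%). Of the 47, 18 were plasma proteins among 34 tested and 9 were enzymes among 20 tested, so that 27 were in either list. The filter of this fit can also admit a gene counted almost only in the libraries richest in ALB. These list counts are therefore a description. Of the rest, 14 had no symbol and 6 had another one. A slope of 1 means that a transcript changed in the same proportion as ALB. AHSG had a slope of 1.08 (SE 0.05), FGG 1.08 (SE 0.10), GC 1.02 (SE 0.12), HRG 1.01 (SE 0.09) and PLG, plasminogen, 1.00 (SE 0.12), with FGG, HRG and PLG chosen after their values were seen. Shallower slopes were those of HPX at 0.71 (SE 0.06), CYP2E1 at 0.66 (SE 0.08), PCK1 at 0.66 (SE 0.15), FGB at 0.52 (SE 0.06) and RBP4 at 0.31 (SE 0.05). With ranges of file numbers added 55 genes rose and 0 fell, and with sex added 45 and 0. Without standard cholecalciferol replicate 6, 26 rose and 1 fell.

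In the 18 libraries between the groups, which the ranking left out of the comparison, ALB ranged only from 19.8 to 42.4 CPM. There 84 of 15091 genes rose with log2 ALB (0.557%) and 102 fell (0.676%). EdgeR called no gene of the hepatocyte lists, whereas DESeq2 called 2 plasma proteins, limma-voom 1 and edgeR without the filter 1. Of 28 plasma proteins and 15 enzymes tested, 6 and 2 rose at an unadjusted p below 0.05, and 0 fell, against 7.89% of all genes rising at that level. FGB had a slope of 1.20 (SE 0.34, edgeR adjusted p = 0.0646), APOH 1.64 (SE 0.56, adjusted p = 0.128), G6PC1 1.55 (SE 0.58, adjusted p = 0.167) and AMBP 1.75 (SE 0.75, adjusted p = 0.237). The genes called between rich and poor libraries had slopes of 0.37 (SE 0.55, AHSG), 0.60 (SE 0.64, CYP2E1), 0.31 (SE 1.36, PCK1) and 0.74 (SE 0.77, ENSSSCG00000023320), with edgeR adjusted p from 0.689 to 0.943. These intervals are wide and hold both 0 and 1.

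The genes that did rise there included muscle genes. Of 17 skeletal muscle genes tested, 8 rose, among them ACTA1 with a slope of 1.12 (SE 0.26, edgeR adjusted p = 0.0293), and SNAP25 fell with a slope of -0.82 (SE 0.19, adjusted p = 0.0296). Without the libraries of file numbers 30 to 34, 4 of which lie in this stretch of the ranking, 0 genes rose and 5 fell, and no muscle gene was called. These 4 libraries had the lowest total gene counts of the 18, at 1.34 to 2.69 M. The part of depth in the muscle slopes was not tested. The muscle slopes themselves moved little: their median was 1.04 in the 18 libraries and 0.92 without those file numbers, with 16 of 17 above 0 both times and 14 and 11 rising at an unadjusted p below 0.05. Between rich and poor libraries ACTA1 differed by 0.53 (SE 0.30, adjusted p = 0.409) and SNAP25 by 0.66 (SE 0.27, adjusted p = 0.292). With the share of reads outside features in the model of the 18 libraries, no gene was called in either direction (832 rising and 828 falling at an unadjusted p below 0.05 by edgeR). The median muscle slope was then 0.94, with 12 of 17 rising at an unadjusted p below 0.05.

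Fibroblast and meningeal genes were another group with a high median. Of 16 listed, 15 had a count and 13 passed the filter, of which 13 lay above 0 and 9 were higher at an unadjusted p below 0.05 (7.1% of all genes). EdgeR called 0 and DESeq2 2 (LUM and DCN), and the median log2 fold change was 1.41, or 0.54 with 2 higher at an unadjusted p below 0.05 by limma-voom. Their summed level was 186 to 1582 CPM in rich and 154 to 387 CPM in poor libraries. The top value came from combination replicate 3. Without that library the median was 0.35 and 2 genes were higher at an unadjusted p below 0.05. COL3A1, a fibrillar collagen, was at 170 CPM there and 10.1 to 27.9 CPM in the other 7 rich libraries, against 6.52 to 41.4 CPM in poor ones (1.59, SE 0.50, edgeR adjusted p = 0.212). LUM, a collagen-binding proteoglycan, was at 2.78 to 10.9 against 1.39 to 3.43 CPM (1.46, SE 0.30, adjusted p = 0.0684), with 7 of 8 rich libraries above all poor ones.

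Combination replicate 3 also stood apart in CPA1, a digestive carboxypeptidase of the exocrine pancreas, at 145 CPM against 1.03 to 3.86 CPM in the other rich and 2.37 to 11.5 CPM in poor libraries. The log2 fold change of CPA1 was 1.78 (SE 0.87, edgeR adjusted p = 0.349), and -1.12 without that library. The summed pancreatic list was at 557 CPM there, 2.87 to 18.4 CPM in the other rich libraries and 4.16 to 43.1 CPM in poor ones. The part of pancreatic and fibroblast transcripts in the hepatocyte values of this library was not tested.

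Markers of brain cells and blood were not called by edgeR. All 13 mitochondrially encoded genes lay below 0 (median -0.35, 5 lower at an unadjusted p below 0.05, against 7.53% of all genes). Without the regional score their median was -0.11, with 3 above 0 and 0 lower at an unadjusted p below 0.05. With each library left out in turn, 0 (without poor 25(OH)D replicate 3) to 9 (without rich standard cholecalciferol replicate 4 or poor standard cholecalciferol replicate 3) were lower at that level. All 10 tested oligodendrocyte genes also lay below 0 (median -0.35, 2 lower at an unadjusted p below 0.05). Their median was -0.71 with 5 lower without rich combination replicate 3, -0.55 with 2 lower without poor 25(OH)D replicate 3, -0.23 with 1 lower without poor combination replicate 2 and -0.19 with 1 lower without poor increased cholecalciferol replicate 8. With 6 libraries a side it was -0.60 with 7 lower. MBP differed by -0.76 (SE 0.34, edgeR adjusted p = 0.313) and GFAP, an astrocyte filament, by -0.20 (SE 0.29, adjusted p = 0.762). HBB, the beta chain of haemoglobin, was at 137 to 928 CPM in rich and 107 to 336 CPM in poor libraries (0.56, SE 0.41, adjusted p = 0.520). The mitochondrial genes are transcribed together and are not independent of one another.

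**Figure D5:**
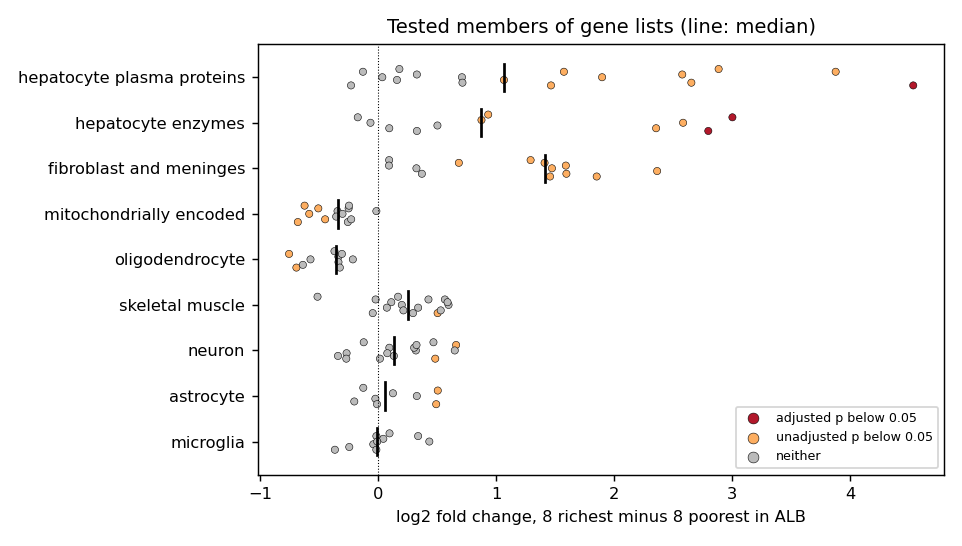
Log2 fold change, rich minus poor (horizontal axis), of the tested members of 9 gene lists (rows, points by gene, bars for medians), coloured by adjusted and unadjusted p. The hepatocyte and fibroblast lists have medians of 1.06, 0.87 and 1.41, the mitochondrial and oligodendrocyte lists lie below 0, and the 3 red points are AHSG, CYP2E1 and PCK1.

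Among genes lower in albumin-rich libraries, none passed the threshold by edgeR, while DESeq2 called 53, the 4 named here among them. Those with a symbol and the smallest p included RPTOR, a subunit of mTORC1, which couples nutrients to growth, INTS3 of the Integrator complex, the MOB family member MOB3B and the zinc-finger gene ZNF583. INTS3 was at 15.2 to 34.7 CPM in rich and 25.7 to 66.4 CPM in poor libraries (log2 fold change -0.73, SE 0.15, edgeR adjusted p = 0.0684) and MOB3B at 5.53 to 14.4 against 13.9 to 20.5 CPM (-0.88, SE 0.19, adjusted p = 0.0729). RPTOR was at 20.4 to 29.7 against 26.9 to 42.8 CPM (-0.54, adjusted p = 0.139) and ZNF583 at 10.9 to 17.8 against 14.3 to 28.03 CPM (-0.76, adjusted p = 0.148). These 4 genes overlapped between groups, and in the 18 libraries between all 4 had slopes above 0, from 0.12 for RPTOR to 0.83 for MOB3B. Genes without a symbol made up 17.1% of genes tested, 9.38% of those higher and 39.3% of those lower at an unadjusted p below 0.05.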

How the data were processed

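RNA from 34 pig samples labelled muscle was isolated with Trizol and made into QuantSeq 3′ libraries, per the labels' protocols. FastQC, TopHat, HTSeq and DESeq2 are named in the submitters' processing notes. Versions, genome build, annotation and strand setting were not stated there. The authors deposited raw read counts for 31907 Ensembl genes, with no normalization, and 15029 identifiers matched a symbol. The 5 HTSeq category lines of each file entered neither library sizes nor tests. The deposited shares of reads outside features are given in the report.

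The members and gene lists were chosen with earlier results of these data known. CPM is the count divided by the sum of gene rows. ALB was removed from the table tested, and the 4 genes of the regional score were left out of all calls. Rich and poor groups of 8 were compared with the quasi-likelihood F-test of edgeR 4.0.16 under R 4.3.3 (two-sided, TMM scaling, edgeR's filter on low counts by albumin group, regional score as covariate, Benjamini-Hochberg adjustment over 12768 genes, threshold 0.05). SE was computed as the fold change over the root of F. The fits over the 18 and the 34 libraries used log2(CPM + 1) of ALB, with a pseudocount of 1. Library measures were compared by an exact permutation test. The shares of the 10 largest genes, of reads outside features and of multiply aligned reads were added after the data were seen. A skeletal muscle score was at first tested with these measures and then kept as a description, which left the calls as they were. Alternatives used limma 3.58.1, DESeq2 1.42.0, other scalings, filters, covariates and samples, and each library left out in turn. Samples are separate pigs by the series description, 1 library each.

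Named genes were those with the smallest p past the threshold (up to 15 per direction), the next 5 by unadjusted p, called members of the hepatocyte lists, 10 genes fixed by name (GC, APOA1, FGB, SERPINA1, CPA1, HBB, ACTA1, MBP, GFAP, SNAP25) and the 10 most like ALB. Some genes that met this rule are not reported here, and other genes were chosen after their values were seen. Counts of 12480 genes were simulated with the depths of the 16 libraries. There 72.3% of 2-fold, 95.3% of 4-fold and 100% of 8-fold changes were recovered, with 10 false among 177 calls. These rates describe the simulated counts and may not hold for hepatocyte genes with few reads in the poor libraries. In the measured data AMBP and HPX missed the threshold with fitted changes above 4-fold. Leaving out the library with the most ALB removed every call. Gene coordinates and sequences were not used here.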

Additional observations from a re-analysis of the deposited data

Results flagged for a closer look

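In 12 of 52 groups of 8 libraries (26 genes, 2 groups each), the highest library lay further from the next than Dixon's 95% limit allows. For normally distributed values chance gives this in about 1 group in 20. That rate does not hold here, because CPM values are skewed and many of the 26 genes were chosen by their relation to ALB. Of the 12, 5 came from standard cholecalciferol replicate 6, the library with the most ALB, with AHSG at 102 CPM (next 30.2), PCK1 at 24.7 (next 9.85), GC at 21.7 (next 8.83), SERPINA1 at 20.3 (next 7.61) and ENSSSCG00000023320 at 18.1 (next 6.84). Since that library was chosen for its ALB, its high AHSG and PCK1 values stand beside an ALB level that is 818 CPM against a next value of 404. That library also had the highest regional score of the rich group, at 7.95.

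Rich combination replicate 3 was the highest of its group in CPA1 at 145 CPM (next 3.86), COL3A1 at 170 (next 27.9) and GFAP at 2409 (next 1245). Rich combination replicate 6 was highest in ACTA1 at 3819 CPM (next 1574), and rich increased cholecalciferol replicate 7 in ZNF583 at 17.8 CPM (next 14.0). In the poor group, combination replicate 2 was highest in APOA1 at 277 CPM (next 180.0) and increased cholecalciferol replicate 8 in GFAP at 4637 CPM (next 1364).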

How the results depend on the processing

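Against 4 genes higher and 0 lower as reported, DESeq2 called 53 and 53, limma-voom 2 and 2, no filter on low counts 23 and 2, the 6 highest against the 6 lowest 13 and 1, the 10 against the 10 lowest 9 and 0, all 34 libraries 47 and 0, and the 18 between 84 and 102. Sex, ranges of file numbers, file numbers 1 to 24 alone and the share of reads outside features (the last added after the data were seen) gave 0 higher, with 806, 837, 861 and 396 genes at an unadjusted p below 0.05 by edgeR. Leaving out each library gave 0 to 16 higher and 0 to 5 lower.

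In the 18 libraries between, against 84 rising and 102 falling, ranges of file numbers gave 14 and 12, no regional score 18 and 5, the share of reads outside features 0 and 0, DESeq2 254 and 211, limma-voom 176 and 227, no filter 232 and 224, and no file numbers 30 to 34 0 and 5, all added after the data were seen. Over 34 libraries, 47 rising and 0 falling became 26 and 1 without standard cholecalciferol replicate 6. The share of reads outside features differed by -5.59 to -4.16 points with each library left out, and by -3.03 with 10 a side.

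Of the 25 named genes, 11 had the opposite sign in the 18 libraries between, LUM (-0.42), INTS3 (0.41), MOB3B (0.83), RPTOR (0.12), ZNF583 (0.40), APOA1 (-0.24), SERPINA1 (0.59), HBB (-0.053), MBP (0.64), GFAP (0.018) and SNAP25 (-0.82). SERPINA1 was at 0.035 with 10 a side, CPA1 at -0.36 with limma-voom and -1.14 with 6 a side, and GFAP at 0.047 with sex and 0.0068 within file numbers 1 to 24. With each library left out, SERPINA1 ranged from -0.27 to 0.034, CPA1 from -1.12 to 2.34 and GFAP from -0.41 to 0.077. Where no value above shows it, the cause was not tested. Low read numbers of hepatocyte genes in the poor libraries limit their fold changes. No paired analysis was possible because replicate numbers follow accession order and pair no pigs.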
